A study of Mus musculus with 4 samples.

Results

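The 10 genes described here are members of the Notch pathway: the receptors Notch1, Notch2 and Notch3, the DNA-binding factor Rbpj, the coactivators Maml1, Maml2 and Maml3, and the target genes Hes1, Dtx1 and Nrarp. They were taken by name from the 21627 protein-coding symbols of the mouse RefSeq annotation of GRCm38.p6, the assembly also known as mm10. The data are ATAC-seq regions, stretches of DNA that the transposase Tn5 could enter, called in 4 libraries of untreated primary mouse cells, with 1 library per group. The groups were DN3 thymocytes of Scd1-deficient mice, DN3 thymocytes of littermate controls, naive CD4 T cells of Scd1-deficient mice and naive CD4 T cells of littermate controls. Scd1 is stearoyl-CoA desaturase, an enzyme that makes monounsaturated fatty acids. DN3 thymocytes, early T cell precursors with neither CD4 nor CD8 on the surface, came from thymus after magnetic depletion and a flow sort for CD25-positive, CD44-negative cells, and naive CD4 T cells came from spleen by magnetic beads. The titles mark the control libraries as SCD1HZ, which the labels do not spell out, and the labels do not give the deleted part of Scd1, the age of the mice or the number of animals behind a library.

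Notch receptors sit in the cell membrane and are cut when a neighbouring cell presents a ligand of the Delta or Jagged type. The freed intracellular part enters the nucleus, where it binds RBPJ and a Mastermind-like protein and turns on genes such as Hes1, Dtx1 and Nrarp. In the thymus this signal is known for committing precursors to the T lineage and for carrying DN3 cells through selection on the T cell receptor beta chain, and it is known to decline afterwards.

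RefSeq promoter windows, which run from 250 bases before to 50 bases after a start site, were on hand for 9 of the 10 genes, 11 windows in all because Rbpj and Maml2 have 2 each. The sequences printed here are those to which the results return: the Rbpj window with matches on both strands, the Maml3 window of the gene with most DN3-only regions, the Notch3 window that regions of naive but not DN3 cells reached, the Dtx1 window whose region was weaker in DN3 cells, and both Maml2 windows, of which 1 lay in a region of every library and the other in none. Each is written 5′ to 3′ on the strand of the gene, from GRCm38.p6, and capitals mark TGGGAA or its reverse complement TTCCCA, the core of the sequence that RBPJ is known to bind.
Rbpj, window 1, chr5:53590096-53590395, plus strand: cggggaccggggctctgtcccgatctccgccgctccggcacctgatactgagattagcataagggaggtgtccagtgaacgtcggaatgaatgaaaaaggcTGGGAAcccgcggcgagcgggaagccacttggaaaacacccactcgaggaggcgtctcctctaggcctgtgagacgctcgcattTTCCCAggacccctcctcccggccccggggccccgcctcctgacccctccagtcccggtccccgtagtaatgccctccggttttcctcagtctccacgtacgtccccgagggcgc
Maml3, chr3:52104957-52105256, minus strand: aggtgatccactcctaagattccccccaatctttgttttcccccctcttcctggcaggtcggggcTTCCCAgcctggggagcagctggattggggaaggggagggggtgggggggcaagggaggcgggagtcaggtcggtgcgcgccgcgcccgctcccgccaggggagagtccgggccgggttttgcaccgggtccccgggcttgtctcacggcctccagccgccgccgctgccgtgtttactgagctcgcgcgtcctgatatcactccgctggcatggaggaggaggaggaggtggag
Notch3, chr17:32166841-32167140, minus strand: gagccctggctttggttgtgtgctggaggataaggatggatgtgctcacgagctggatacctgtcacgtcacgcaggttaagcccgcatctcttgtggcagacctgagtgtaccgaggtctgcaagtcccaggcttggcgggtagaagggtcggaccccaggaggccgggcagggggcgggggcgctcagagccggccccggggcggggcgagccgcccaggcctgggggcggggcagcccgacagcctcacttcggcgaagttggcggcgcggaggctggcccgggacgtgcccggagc
Dtx1, chr5:120711620-120711919, minus strand: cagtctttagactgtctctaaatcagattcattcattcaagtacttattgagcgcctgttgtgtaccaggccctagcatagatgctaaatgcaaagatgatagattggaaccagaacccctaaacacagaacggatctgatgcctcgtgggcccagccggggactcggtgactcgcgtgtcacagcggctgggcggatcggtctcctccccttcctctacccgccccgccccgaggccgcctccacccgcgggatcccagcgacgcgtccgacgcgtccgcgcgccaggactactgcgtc
Maml2, window 1, chr9:13297708-13298007, plus strand: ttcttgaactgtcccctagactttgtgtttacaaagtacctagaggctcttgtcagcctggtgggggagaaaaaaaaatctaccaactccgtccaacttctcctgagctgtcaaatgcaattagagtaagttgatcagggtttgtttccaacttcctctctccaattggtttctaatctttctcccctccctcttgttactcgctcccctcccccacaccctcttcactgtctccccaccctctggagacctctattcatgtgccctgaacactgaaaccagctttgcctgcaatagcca
Maml2, window 2, chr9:13662210-13662509, plus strand: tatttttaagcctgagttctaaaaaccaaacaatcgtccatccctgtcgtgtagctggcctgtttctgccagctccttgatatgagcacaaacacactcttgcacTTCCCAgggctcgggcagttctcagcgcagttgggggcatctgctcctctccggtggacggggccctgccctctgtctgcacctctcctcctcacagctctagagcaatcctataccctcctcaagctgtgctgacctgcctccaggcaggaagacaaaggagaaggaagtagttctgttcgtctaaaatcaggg

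The core was found in 4 of the 11 member windows. Both Rbpj windows held it, with a forward match 149 bases and a reverse match 65 bases before the start of window 1. Window 2 of Rbpj overlaps window 1, and its reverse match, 205 bases before its own start, is the same stretch of DNA. The Maml3 window had a reverse match 185 bases before the start, and window 2 of Maml2 had a reverse match 145 bases before the start. Across all 32851 RefSeq windows of this length, searched on both strands, 25.6% held the core at least once and 3.79% held it at 2 or more positions. A match of these letters describes the window and is no evidence of binding. GC content reached 73% in the Notch2 window and was 48% in window 1 of Maml2, against a median of 52.7% over all windows.

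The lists held 76450 regions in Scd1-deficient DN3 cells, 76828 in control DN3 cells, 51309 in Scd1-deficient naive cells and 46585 in control naive cells, and a region absent from a list is one the caller did not report, not one shown to be closed. No total read count was used here; the lowest background, which grows with depth, was 4.47 and 4.72 fragments in Scd1-deficient and control DN3 cells, against 3.65 and 5.12 fragments in Scd1-deficient and control naive cells, so the shortest list had the highest value. The targeted gene, Scd1, had 4 and 3 regions in Scd1-deficient and control DN3 cells and 2 in each naive library, which cannot check the deletion, because the labels do not say what part of the gene was removed. Of the 6 DN3 markers, Ptcra, Rag1, Rag2 and Dntt had their start window in a region of both DN3 libraries and of neither naive library, and those of Il2ra and Cd3e were in regions of all 4. Of the 3 naive CD4 markers with a start window, that of Zbtb7b, the factor of the CD4 lineage, was in a region of both naive libraries and of neither DN3 library, and those of Il7r and Klf2 were in regions of all 4. The 6 DN3 markers held 44 joint loci, 11 of them DN3-only and 1 naive-only. The 7 naive CD4 markers held 51 joint loci, 10 of them naive-only and 3 DN3-only. Over all protein-coding genes 26.6% of loci were DN3-only and 4.77% naive-only. Markers of other cells also had regions. The CD8 markers held 13 joint loci, 5 of them called in both DN3 libraries and neither naive library, the 4 B cell markers 39, with 16 such loci, and the 4 myeloid markers 25, with 8, where the share over all genes was 26.6%. The start of Cd8a was in regions of both DN3 libraries and of neither naive library. The start windows of Pax5 and Ebf1 lay in no region of any library, Lyz2 and Csf1r had regions in DN3 cells and none in naive cells, the start of Itgam was in a region of both naive libraries alone, and the part that other cells had in the counts below was not tested.

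Regions of the 4 lists that overlapped by at least 1 bp were joined into loci, and the gene bodies of the 10 genes with 10 kb on each side held 173 of the 68318 loci of all protein-coding genes. In bulk libraries a region open in few cells and a region less open in every cell cannot be told apart. These loci carried 151 and 145 regions in Scd1-deficient and control DN3 cells, against 99 and 91 in Scd1-deficient and control naive cells. DN3-only loci, called in both DN3 libraries and in neither naive library, numbered 54, or 31.2% of the members' loci, against 26.6% over all protein-coding genes. Naive-only loci, called in both naive libraries and in neither DN3 library, numbered 10, or 5.78%, against 4.77% over all genes. Another 73 loci were called in all 4 libraries, 42.2% against 44.2% over all genes, and the other 36 had other combinations. As a list the members were within 5 percentage points of all genes in these shares, and the differences lay between the genes: 26 of the 54 DN3-only loci were in Maml3 and 8 of the 10 naive-only loci were in Maml2. Without these 2 genes, 76 loci remained, of which 24 were DN3-only, or 31.6%, and 2 naive-only, or 2.63%. The DN3-only share was thus nearly the same with and without them.

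**Figure D1:**
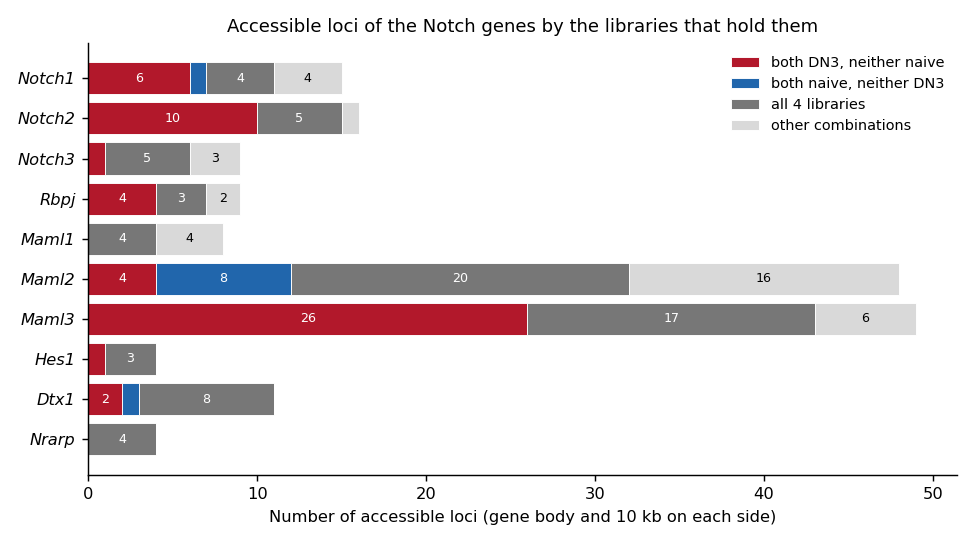
Number of accessible loci within the gene body and 10 kb on each side of each Notch gene (x axis), coloured by the libraries in which a region was called; segments with 2 or more loci carry their count. Maml3 holds 26 DN3-only loci and no naive-only locus, Maml2 holds 4 and 8, and all 4 loci of Nrarp were called in every library.

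The number of DN3-only loci moved with list length. With every list reduced to its 46585 strongest regions, the members had 25 DN3-only and 26 naive-only loci, 19.5% and 20.3% of the loci left, against 14.9% and 13.8% over all protein-coding genes, and 49 loci in all 4 libraries, 38.3% against 50.9%. Away from start windows the members had 53 DN3-only loci of 162, or 32.7%, against 29.8% over all genes. The DN3-only loci were as a rule not the edges of naive regions, since the nearest naive region lay a median of 5704 bp away and within 500 bp for 3 of the 54. Their median −log10 q, the caller's significance at the summit, was 22.4 and 21.7 in Scd1-deficient and control DN3 cells, against 17 and 19.9 for DN3-only loci of all genes in the same libraries.

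Notch1, the receptor required for T lineage commitment, lies on the minus strand of chr2:26457902-26503822 and had 15 loci, 6 DN3-only, 1 naive-only and 4 in all 4 libraries. Its strongest region of DN3 cells by −log10 q lay 35.2 kb into the gene, at chr2:26467927-26469280. The −log10 q was 208 and 247 and the fold over local background 9.26 and 10.5 in Scd1-deficient and control DN3 cells. The same locus was not called in Scd1-deficient naive cells and had a fold of 2.94 from 17 summit fragments in control naive cells, against 355 and 389 fragments in Scd1-deficient and control DN3 cells. Among the DN3-only loci of Notch1, the strongest lay 9.8 kb upstream of the start, at chr2:26513009-26514242, with folds of 7.48 and 7.34 and −log10 q of 181 and 174 in Scd1-deficient and control DN3 cells. The next DN3-only locus lay 54 kb from the start, beyond the gene's end, with folds of 3.07 and 3.18, and another lay 42.8 kb into the gene, with folds of 4 and 4.13, in Scd1-deficient and control DN3 cells. Naive cells had a locus of their own 20.2 kb into Notch1, at chr2:26483151-26484186, with folds of 9.13 and 9.82 in Scd1-deficient and control naive cells. Notch1 thus had distal loci of either cell type in the same gene body. With lists of equal length 3 of its 11 loci were DN3-only and 2 naive-only, against 14.9% and 13.8% over all protein-coding genes.

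The start of Notch1 was accessible in all 4 libraries, with folds of 5.73 and 5.98 in Scd1-deficient and control DN3 cells against 9.18 and 9.06 in Scd1-deficient and control naive cells. The fold is taken against the local background of the same library, which was 80.9 and 79.6 fragments around the Notch1 start in Scd1-deficient and control DN3 cells and 61 and 88.4 fragments in Scd1-deficient and control naive cells. A second scale was therefore used beside it: the pileup, or summit fragments over the lowest background of the library, compared between cell types after centring on the median ratio of the 30189 common loci of all genes. On that scale the Notch1 start had a DN3 over naive ratio of 0.904 in Scd1-deficient mice (95% exact counting interval 0.798 to 1.02) and 0.754 in control mice (0.672 to 0.845). The ratio was below 1 on both scales, and the interval of the Scd1-deficient pair included 1. These intervals cover counting error and not the spread between animals.

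Notch2, a receptor known best for its part in marginal zone B cells, lies on the plus strand of chr3:98013538-98150367. It had 16 loci, of which 10 were DN3-only, none naive-only and 5 in all 4 libraries. The strongest DN3-only locus lay 101.8 kb into the gene, at chr3:98114957-98115700, with folds of 12.6 and 11.4 and −log10 q of 81.9 and 82 in Scd1-deficient and control DN3 cells. The next lay 88.1 kb into the gene, with folds of 7.51 and 9.21, and 22.9 kb into the gene, with folds of 9.19 and 7.62, in Scd1-deficient and control DN3 cells. The start itself had nearly the same fold in every library, 12.9 and 13.2 in Scd1-deficient and control DN3 cells against 14.4 and 13.6 in Scd1-deficient and control naive cells. Its centred pileup ratio of DN3 over naive was 0.75 in Scd1-deficient mice (95% interval 0.658 to 0.855) and 0.693 in control mice (0.611 to 0.784). At the 2 common loci farthest from the start, 49.3 kb and 70.8 kb into the gene, the centred pileup in DN3 cells was 4.72 and 3.26 times that in naive cells of Scd1-deficient mice and 4.71 and 3.2 times that of control mice. With lists of equal length Notch2 had 11 loci, 4 DN3-only and 1 naive-only. Over all protein-coding genes 14.9% and 13.8% of loci were so.

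Notch3, a receptor known to be expressed in immature thymocytes, lies on the minus strand of chr17:32120820-32166896 and had 9 loci, 1 DN3-only and 5 in all 4 libraries. The DN3-only locus, 2.5 kb into the gene at chr17:32163879-32164971, had 520 and 538 summit fragments, folds of 6.81 and 6.72 and −log10 q of 242 and 247 in Scd1-deficient and control DN3 cells, which made it the strongest of all 54 DN3-only loci. Its edge was 484 bp from the nearest naive region. Next to it, at the locus chr17:32165362-32167121, regions of DN3 cells ended before the RefSeq start window printed above, while regions of both naive libraries reached into the window.

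All 5 common loci of Notch3 had more fragments in DN3 cells once background was taken genome-wide. Their centred pileup ratios of DN3 over naive ran from 1.62 to 7.48 in Scd1-deficient mice and from 1.91 to 5.87 in control mice. The highest ratios belonged to a locus 48.5 kb from the start, beyond the gene's end. The locus 52.6 kb from the start was also beyond it and overlapped the RefSeq start window of another gene. For the 3 loci inside the gene the ratios were 1.62 to 2.1 in Scd1-deficient mice and 1.91 to 2.43 in control mice. The deposited fold gave another order at the locus beside the start, 1.93 and 2.75 in Scd1-deficient and control DN3 cells against 5.83 and 5.21 in Scd1-deficient and control naive cells. There the local background was 76.8 and 80.7 fragments in Scd1-deficient and control DN3 cells against 15.8 and 21.7 fragments in Scd1-deficient and control naive cells, and the summits held 149 and 224 fragments against 97 and 117. The centred pileup ratio of DN3 over naive was 1.68 in Scd1-deficient mice (95% interval 1.3 to 2.2) and 2.43 in control mice (1.93 to 3.06), so the direction at this locus depended on which background was used. The same held for the loci 4.7 kb into the gene and 52.6 kb from its start, where the deposited fold ratios of DN3 over naive were 0.424 and 0.784 in Scd1-deficient mice and 0.516 and 0.702 in control mice. The strongest fold of Notch3, 23.6 kb into the gene, was 18.5 in each DN3 library, against 18.8 and 17 in Scd1-deficient and control naive cells.

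**Figure D2:**
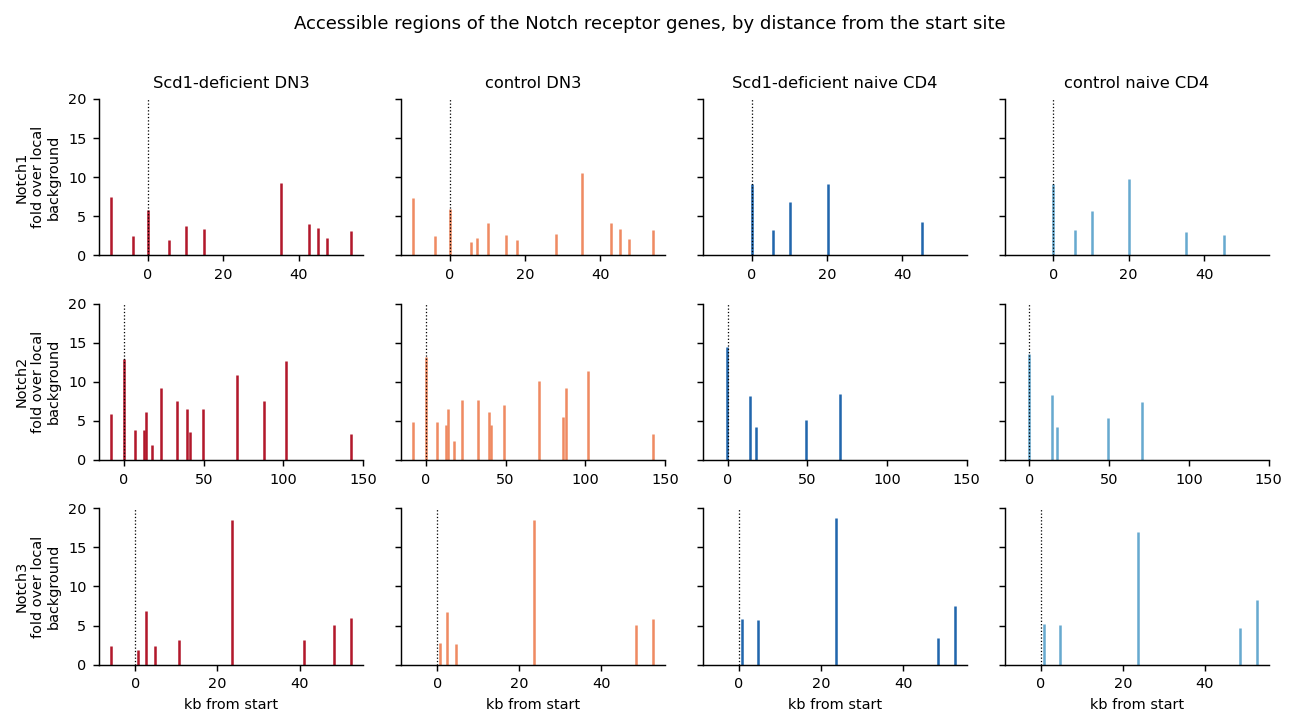
Fold over local background (y axis) of the strongest region of each locus of Notch1, Notch2 and Notch3, against the distance of the locus from the start site in kb (x axis, dotted line at the start), with a column of panels for each library. Notch2 shows loci along its whole body in DN3 cells and 4 beyond the start in naive cells, and the DN3 fold of 9.26 and 10.5 at 35.2 kb in Notch1 faces 2.94 in control naive cells.

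Rbpj, the DNA-binding partner through which all Notch receptors act, lies on the plus strand of chr5:53555779-53657445 and had 9 loci, 4 DN3-only, none naive-only and 3 in all 4 libraries. The strongest DN3-only locus lay 15.3 kb past the start of window 1, at chr5:53604993-53605921, with folds of 13.3 and 13.6 and −log10 q of 97.7 and 102 in Scd1-deficient and control DN3 cells. A further DN3-only locus, 40.6 kb past the start, had folds of 10 and 14.3 in Scd1-deficient and control DN3 cells, and the next, 67.8 kb past the start and beyond the gene's end, had folds of 5.11 and 4.54. The start region covered both of its overlapping windows in all 4 libraries, with folds of 6 and 5.93 in Scd1-deficient and control DN3 cells against 7.18 and 6.52 in Scd1-deficient and control naive cells. Its centred pileup ratio of DN3 over naive was 0.96 in Scd1-deficient mice (95% interval 0.847 to 1.09) and 0.905 in control mice (0.806 to 1.02), both intervals including 1. The regions called at Rbpj therefore differed between the cell types inside its body, where DN3-only loci had no naive value to compare. Its start did not differ detectably. With lists of equal length 2 of the 7 loci of Rbpj were DN3-only, against 14.9% of loci over all protein-coding genes.

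Maml1, a Mastermind-like coactivator that joins the complex of RBPJ and the intracellular receptor, lies on the minus strand of chr11:50255634-50293131 and had 8 loci, none DN3-only and none naive-only. Of these, 4 were called in all 4 libraries, 1 in 3 libraries and the other 3 in a DN3 library alone. The start had folds of 10.6 and 10.7 in Scd1-deficient and control DN3 cells against 10.8 and 10.5 in Scd1-deficient and control naive cells, and the centred pileup ratio of DN3 over naive there was 0.844 in Scd1-deficient mice (95% interval 0.747 to 0.954) and 0.736 in control mice (0.657 to 0.824). The locus 12 kb into the gene had folds of 10.7 and 11.6 in Scd1-deficient and control DN3 cells against 9.31 and 9 in Scd1-deficient and control naive cells, and its centred pileup ratio of DN3 over naive was 2 in Scd1-deficient mice (95% interval 1.52 to 2.66) and 1.71 in control mice (1.34 to 2.19). On the pileup scale the start thus leaned toward naive cells and the locus 12 kb into the gene toward DN3 cells.

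Maml2 and Maml3 are coactivators of the same family and very long genes, at chr9:13296561-13709533 on the plus strand and chr3:51687320-52105319 on the minus strand. They held nearly equal numbers of loci, 48 in Maml2 and 49 in Maml3, with opposite balance between the cell types. Maml3 had 26 DN3-only loci, no naive-only locus and 17 in all 4 libraries; Maml2 had 4 DN3-only loci, 8 naive-only loci and 20 in all 4. With lists of equal length the balance had the same direction. Maml3 then had 12 DN3-only and 2 naive-only loci of 31, and Maml2 had 2 DN3-only and 18 naive-only loci of 38. Over all protein-coding genes 14.9% of loci were DN3-only and 13.8% naive-only in these lists. Over the 9503 protein-coding genes with at least 4 loci, the median gene had 20% of its loci DN3-only and none naive-only. Among the 47 genes with at least 40 loci, the median share of DN3-only loci was 31.9% and 3 genes lay above the 53.1% of Maml3; 7 genes had a larger naive-only share than Maml2.

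In Maml3 the 22 loci within 209 kb of the start, the midpoint of the gene, included 8 that were DN3-only and 10 common to all libraries. The 27 loci farther along included 18 that were DN3-only and 7 common ones. In these distal 27 loci DN3 cells had 27 regions in each library, against 8 and 7 in Scd1-deficient and control naive cells. The strongest DN3-only locus of Maml3 was at chr3:52076353-52076895, 28.4 kb into the gene, with folds of 13.1 and 13.8 and −log10 q of 157 and 182 in Scd1-deficient and control DN3 cells. The next lay 257.5 kb into the gene, with folds of 12.9 and 14.7, and 322.6 kb into the gene, with folds of 8.74 and 8.17, in Scd1-deficient and control DN3 cells. All 3 lay inside the gene, and no naive library had a region there.

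Common loci of Maml3 also had more fragments in DN3 cells at several places. At chr3:51739029-51739740, 365.7 kb into the gene, the fold was 11.3 and 10.1 in Scd1-deficient and control DN3 cells against 5.8 and 4.91 in Scd1-deficient and control naive cells, and the centred pileup ratio of DN3 over naive was 7.93 in Scd1-deficient mice (95% interval 5.25 to 12.5) and 8.74 in control mice (5.9 to 13.4). Of the 17 common loci of Maml3, 9 had a centred pileup ratio past 1.5 toward DN3 in both genotypes, or 52.9% against 22.8% over all genes. None passed toward naive, against 9.79%. On the deposited fold 1 passed 1.5 toward DN3, or 5.88% against 5.84%, and 2 toward naive, or 11.8% against 6.32%. Those 2 lay 35 kb and 16.4 kb into the gene. Their centred pileup ratios were 0.983 and 1.03 in Scd1-deficient mice and 0.793 and 0.986 in control mice. At the start of Maml3 the folds were 3.58 and 3.52 in Scd1-deficient and control DN3 cells against 4.09 and 3.6 in Scd1-deficient and control naive cells, so the promoter printed above was accessible in every library and the cell types parted in the gene body.

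In Maml2 the naive-only loci included a cluster at 151.8, 159.2 and 172.3 kb from the start. The strongest, chr9:13449325-13450264, had folds of 6.4 and 5.78 and −log10 q of 47.1 and 57.5 in Scd1-deficient and control naive cells. The locus at 172.3 kb had folds of 3.72 and 3.35, and the locus at 159.2 kb had folds of 9.11 and 5.88, in Scd1-deficient and control naive cells. Common loci of Maml2 leaned the same way. On the deposited fold, 4 of the 20 passed 1.5 toward naive in both genotypes, or 20% against 6.32% over all genes. Toward DN3, 2 passed, or 10% against 5.84%. On the centred pileup, 6 passed toward naive, or 30% against 9.79%, and 2 toward DN3, or 10% against 22.8%. The most uneven of them, chr9:13613411-13614734, 316.1 kb into the gene, had 25 and 38 summit fragments in Scd1-deficient and control DN3 cells against 161 and 226 in Scd1-deficient and control naive cells, with folds of 4.75 and 6.82 against 15.1 and 12.9. Its centred pileup ratio of DN3 over naive was 0.17 in Scd1-deficient mice (95% interval 0.107 to 0.261) and 0.213 in control mice (0.147 to 0.302). The locus 310.3 kb into the gene leaned the same way, with folds of 2.74 and 3.32 in Scd1-deficient and control DN3 cells against 8.4 and 6.65 in Scd1-deficient and control naive cells.

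The DN3-only loci of Maml2 lay in its distal part. The strongest, chr9:13681299-13682057, 384 kb into the gene, had folds of 12.2 and 13.9 in Scd1-deficient and control DN3 cells, and the next, at 370.1 kb, had folds of 8.04 and 9.54. At 362.9 kb, close to window 2, the fold was 12.2 in each DN3 library against 2.78 in control naive cells, with no region in Scd1-deficient naive cells. All 4 lay beyond 206 kb, the midpoint of the gene, while 4 of the 8 naive-only loci lay on either side of it. Window 1 of Maml2 was in a region of every library. The regions over it had folds of 6.04 and 6.44 in Scd1-deficient and control DN3 cells. Those in Scd1-deficient and control naive cells had folds of 4.6 and 6.68. Another region of this locus ended before the window, with folds of 7.81 and 7.6 in Scd1-deficient and control DN3 cells. Its fold was 7.46 in Scd1-deficient naive cells. In control naive cells a single region covered both stretches, with its summit before the window.

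**Figure D3:**
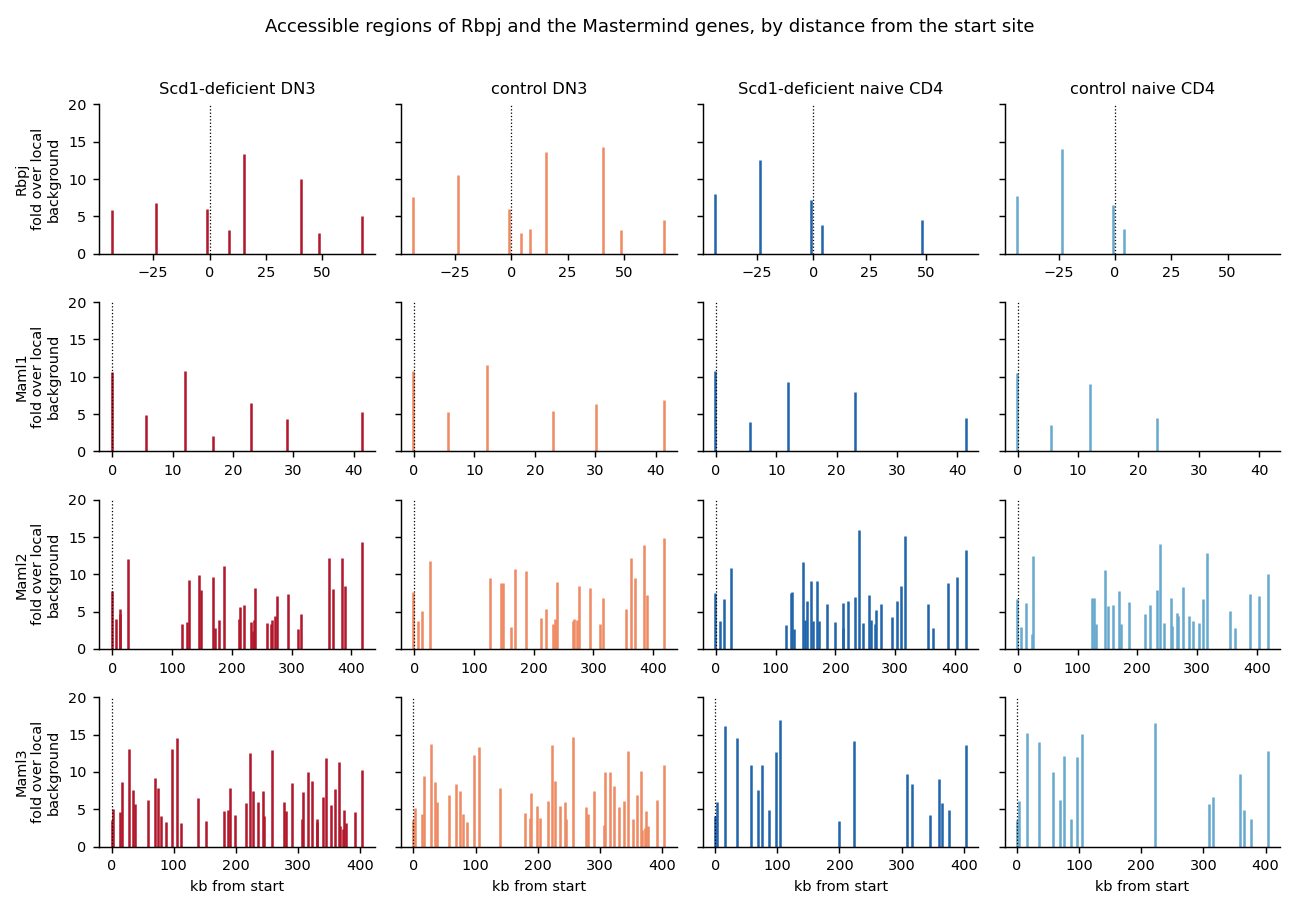
Fold over local background (y axis) of the strongest region of each locus of Rbpj, Maml1, Maml2 and Maml3, against the distance from the start site in kb (x axis, dotted line at the start), with a column of panels for each library. Beyond 209 kb in Maml3 the DN3 panels are crowded, while the naive panels of Scd1-deficient and control cells hold 8 and 7 loci; the panels of Maml2 are filled along the gene in every library.

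Hes1, a transcriptional repressor and a direct target of Notch, lies at chr16:30065357-30067796; its strand was not in the tables used here. It had 4 loci, 3 of them in all 4 libraries. The DN3-only locus, chr16:30064907-30065459, covered the lower-coordinate end of the gene, with folds of 4.22 and 4.16, −log10 q of 88.1 and 85.6 and 298 and 294 summit fragments in Scd1-deficient and control DN3 cells. The nearest naive region was 363 bp away, the shortest such distance among the members. The common loci next to this end and inside the gene had centred pileup ratios of DN3 over naive of 1.75 and 1.92 in Scd1-deficient mice and 2.35 and 1.8 in control mice, with 95% intervals above 1, and the third common locus, 5 kb above this end, had 0.937 and 1.48. Hes1 was thus accessible around the gene in both cell types, and the scales differed in direction at the 2 loci above 1: their deposited folds were 4.04 and 3.6 in Scd1-deficient and 3.87 and 3.55 in control DN3 cells, against 6.11 and 4.05 in Scd1-deficient and 4.36 and 4.41 in control naive cells.

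Dtx1, the ubiquitin ligase Deltex-1 and another Notch target, lies on the minus strand of chr5:120680203-120711867 and had 11 loci, 8 of them in all 4 libraries. Its start was weaker in DN3 cells on both scales, with folds of 5.62 and 5.84 in Scd1-deficient and control DN3 cells against 9.52 and 8.97 in Scd1-deficient and control naive cells. The centred pileup ratio of DN3 over naive at this locus was 0.545 in Scd1-deficient mice (95% interval 0.448 to 0.66) and 0.512 in control mice (0.428 to 0.611), and no other start region of the members passed 1.5 toward naive on that scale in both genotypes. A naive-only locus lay 6.4 kb into Dtx1, with folds of 3.42 and 4.13 in Scd1-deficient and control naive cells. DN3-only loci lay 28.5 kb and 17 kb into the gene, with folds of 2.37 and 3.86 in Scd1-deficient DN3 cells and 3.14 and 3.48 in control DN3 cells. The strongest region by −log10 q, 25.8 kb into the gene, was shared, with folds of 8.72 and 9.64 in Scd1-deficient and control DN3 cells against 10.1 and 9.11 in Scd1-deficient and control naive cells. With lists of equal length Dtx1 had 11 loci, none DN3-only and 2 naive-only, against 14.9% and 13.8% over all protein-coding genes. The neighbouring gene Rasal1 holds the summits of its 2 downstream loci.

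Nrarp, a short ankyrin repeat protein that dampens Notch signalling as a target of it, lies on the plus strand of chr2:25180758-25183339 and had 4 loci, all called in all 4 libraries. The start had folds of 7.82 and 7.42 in Scd1-deficient and control DN3 cells against 8.99 and 9.19 in Scd1-deficient and control naive cells. Its centred pileup ratio of DN3 over naive was 0.88 in Scd1-deficient mice (95% interval 0.752 to 1.03) and 0.873 in control mice (0.754 to 1.01), both intervals including 1. The locus farthest downstream lies in the neighbouring gene Tor4a. With lists of equal length 1 of the 4 loci of Nrarp was naive-only, against 13.8% of loci over all protein-coding genes.

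The strongest region by −log10 q was at the start in all 4 libraries for Notch2, Rbpj, Maml1 and Nrarp, and 25.8 kb into the gene in all 4 for Dtx1. For Notch1 it lay 35.2 kb into the gene in both DN3 libraries and at the start in both naive libraries. In Notch3 it was the DN3-only locus 2.5 kb into the gene in both DN3 libraries, and the locus 23.6 kb into the gene in both naive libraries. In Maml2 the strongest DN3 regions belonged to the start locus but ended before window 1. The strongest region of Scd1-deficient naive cells lay 145.7 kb into the gene, with a fold of 11.6. That of control naive cells lay 25.6 kb into the gene, with a fold of 12.4. For Maml3 the strongest DN3 regions lay 97.2 kb into the gene, with folds of 13.1 and 12.3 in Scd1-deficient and control cells, and the strongest naive regions 104.8 kb into it in Scd1-deficient cells, with a fold of 17, and 2.5 kb into it in control cells, with a fold of 6.07. Hes1 had its strongest region at the DN3-only locus in DN3 cells. In Scd1-deficient naive cells it was the common locus next to the lower-coordinate end, and in control naive cells the common locus inside the gene.

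Set side by side, the starts of 8 of the 9 members with a window were in a region of every library, against 54.8% of protein-coding genes with a window. Of the 73 common loci, 3 had a deposited fold ratio past 1.5 toward DN3 in both genotypes, or 4.11% against 5.84% of the common loci of all genes, and 12 toward naive, or 16.4% against 6.32%. On the centred pileup scale 23 passed toward DN3, or 31.5% against 22.8%, and 7 toward naive, or 9.59% against 9.79%. The 2 scales thus gave different balances for the same loci. At 12 of the 73, or 16.4% against 11.9% over all genes, the fold ratio of DN3 over naive was below 1 and the centred pileup ratio above 1 in both genotypes: 4 in Maml3, 3 in Notch3, 2 each in Maml2 and Hes1, and 1 in Dtx1. The opposite held at 1 locus, in Maml2, or 1.37% against 9%. On the pileup scale the 23 loci toward DN3 were 9 of Maml3, 5 of Notch3, 2 each of Notch2, Maml2 and Hes1, and 1 each of Notch1, Maml1 and Dtx1. Before centring, the median pileup ratio of DN3 over naive over all common loci was 0.744 in Scd1-deficient mice and 0.855 in control mice, a shift of -0.43 and -0.23 on the log2 scale.

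**Figure D4:**
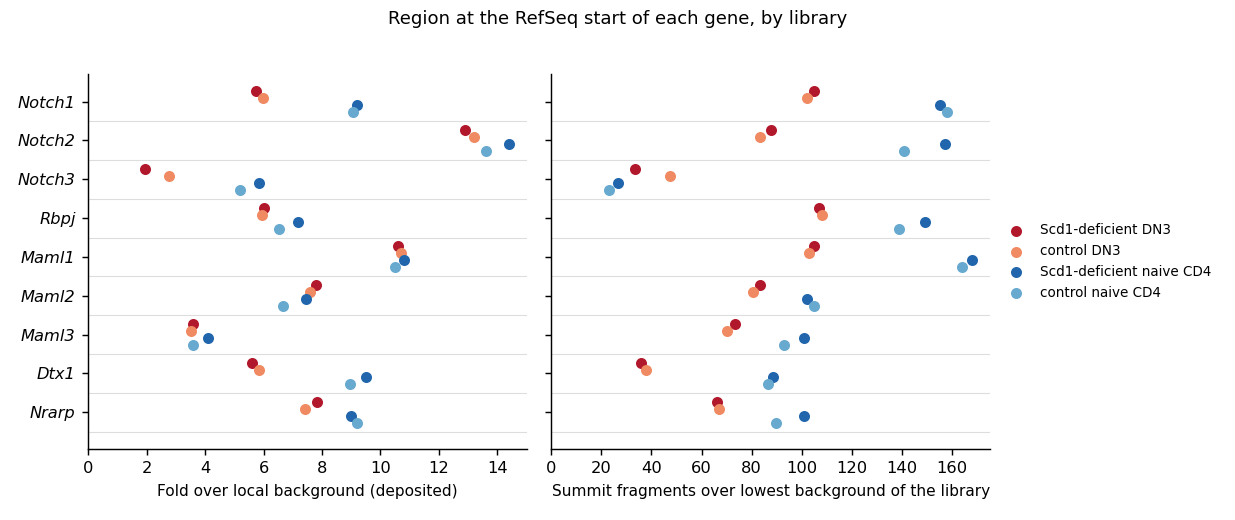
Values of the strongest region of the locus at the RefSeq start of the 9 members with a start window, by library: deposited fold over local background (left, x axis) and summit fragments over the lowest background of the library, not centred (right, x axis). For Notch3 and Maml2 this region lay outside the start window in every library but control naive CD4. Dtx1 is lower in both DN3 libraries on either axis, as are Notch1, Notch2 and Rbpj among others. On the uncentred right scale, the median DN3 over naive ratio of common loci of all genes was 0.744 in Scd1-deficient and 0.855 in control mice. Notch3 has folds of 1.93 and 2.75 in DN3 cells below 5.83 and 5.21 in naive cells on the left and the opposite order on the right.

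**Figure D5:**
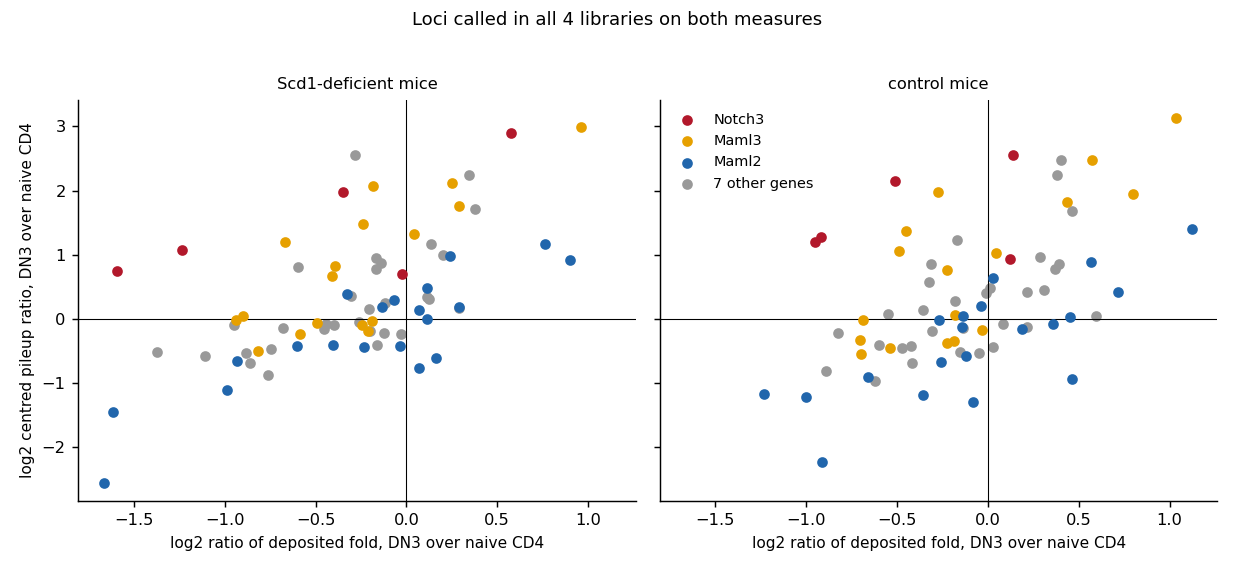
Loci called in all 4 libraries, with the log2 ratio of DN3 over naive CD4 on the deposited fold (x axis) and on the centred pileup (y axis), in Scd1-deficient mice (left) and control mice (right). Each point is a locus; all 5 loci of Notch3 lie above 0 on the y axis in both panels, while loci of Maml2 reach the lowest values.

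The comparison of Scd1-deficient with control cells gave few differences at these genes, and with 1 library per group none can be set against the spread between animals. In DN3 cells, 16 of the members' 159 loci were called in the Scd1-deficient library alone, or 10.1% against 8.15% over all genes, and 9 in the control library alone, or 5.66% against 8.95%. In naive cells, 10 of 101 loci were called in the Scd1-deficient library alone, or 9.9% against 11.4%, and 4 in the control library alone, or 3.96% against 4.88%. The 16 loci of Scd1-deficient DN3 cells had a median −log10 q of 4.82 and the 9 of control DN3 cells one of 10.6, against 5.35 and 6.2 for such loci of all genes. In naive cells the medians were 5.59 for Scd1-deficient and 4.3 for control cells, against 7.02 and 5.68 over all genes. Notch1, Notch2, Hes1, Dtx1 and Nrarp had no locus of the Scd1-deficient library alone in either cell type. Hes1 and Nrarp had only 4 DN3 loci each, and the share over all genes was 8.15% in DN3 cells. Notch3 had 3 of its 9 DN3 loci in the Scd1-deficient library alone, or 33.3%, with 20 to 25 summit fragments each. Notch1 had 3 of its 14 DN3 loci in the control library alone, or 21.4% against 8.95% over all genes. Maml2 held 8 of the 16 loci of Scd1-deficient DN3 cells alone, or 22.2% of its 36 DN3 loci against 8.15% over all genes. It held 6 of the 10 of Scd1-deficient naive cells alone, or 15% of its 40 naive loci against 11.4%.

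In 3 of the 4 libraries, the strongest locus of that genotype alone was also called in the other cell type. At Rbpj, a locus 4.1 kb past the start was called in control DN3 cells, with a fold of 2.79 and −log10 q of 28.5, and not in Scd1-deficient DN3 cells, while it had folds of 3.87 and 3.37 in Scd1-deficient and control naive cells. In Maml2, a locus 148.5 kb into the gene was called in Scd1-deficient naive cells, with a fold of 3.93 and −log10 q of 40, and not in control naive cells, while it had folds of 7.94 and 8.86 in Scd1-deficient and control DN3 cells. At Notch2, the locus 86 kb into the gene that only control DN3 cells had carried a fold of 5.5 and −log10 q of 25.7. Maml1 had a locus 30.1 kb into the gene in control DN3 cells alone, with a fold of 6.39, and another 29 kb into the gene in Scd1-deficient DN3 cells alone, with a fold of 4.32.

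Among loci of both genotypes, the fold ratio of Scd1-deficient over control passed 1.5 or its inverse at 1 of 134 shared DN3 loci, against 2.01% of shared loci of all genes, and at 5 of 87 shared naive loci, against 5.33%. The DN3 locus was in Rbpj, chr5:53566059-53567360, with folds of 6.76 in Scd1-deficient and 10.5 in control DN3 cells. It lay 23.7 kb before the start of window 1 and within the annotated gene. Its summits held 36 and 59 fragments, and the pileup ratio of Scd1-deficient over control was 0.643 (95% interval 0.412 to 0.989). In naive cells the same locus had folds of 12.5 and 14 and a pileup ratio of 0.703 (0.499 to 0.982). Both were lower in Scd1-deficient cells, and the deposited fold ratio of 0.888 in naive cells did not pass 1.5.

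The 5 naive loci were all higher in Scd1-deficient cells, as were 1708 of all genes' shared naive loci past 1.5, against 143 that were lower, so the direction is that of the libraries as a whole. They were 2 in Maml2 and 1 each in Notch1, Maml1 and Maml3. Their fold ratios of Scd1-deficient over control ran from 1.55 to 1.88. At Maml1, 23 kb into the gene, the folds were 7.95 in Scd1-deficient and 4.41 in control naive cells from 36 and 26 summit fragments, with a pileup ratio of 1.72 (95% interval 1.01 to 2.97). The interval of the pileup ratio included 1 at Notch1 (0.752 to 2.75) and at both Maml2 loci (0.941 to 2.05 and 0.987 to 3.37). At Maml3, 308.4 kb into the gene, the folds were 9.67 and 5.72 in Scd1-deficient and control naive cells, with a pileup ratio of 1.61 (1.01 to 2.6), and 7.37 and 9.97 in Scd1-deficient and control DN3 cells. No member locus passed 1.5 the same way in both cell types, and over the shared loci the median fold ratio of Scd1-deficient over control was 0.985 in DN3 and 1.1 in naive cells, against 0.996 and 1.09 over all genes. The medians of the members were thus close to those of the libraries as a whole.

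The other 44 genes of the pathway on the list used here, from ligands to further targets, had 289 loci, of which 51 were DN3-only, or 17.6% against 26.6% over all protein-coding genes, and 22 naive-only, or 7.61% against 4.77%. Their starts were in a region of every library for 28 of the 32 genes with a window, against 54.8% over all genes, and the start window of Notch4, the fourth receptor, was in none. The 5 ligand genes had 20 loci, 5 of them DN3-only and none naive-only. Genes of receptor maturation had 2 DN3-only and 2 naive-only loci of 26, and genes of receptor cleavage 6 and 2 of 31. Genes of turnover and inhibition had 9 DN3-only loci of 47 and no naive-only locus. The corepressors and coactivators had 17 DN3-only and 5 naive-only loci of 76, and the other targets 12 and 13 of 82.

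Among the genes with DN3-only loci, Heyl, a repressor of the Hes family, had all 5 of its loci DN3-only, Crebbp, a histone acetyltransferase, had 4, and Numbl and Fbxw7, which act in receptor turnover, had 3 each. Heyl had no region in either naive library. The naive-only loci were concentrated in Lef1, a transcription factor of T cells, with 11 of its 30 loci. Next came Kat2b, an acetyltransferase, with 4, and Gata3, another transcription factor of T cells, with 2. Furin, Pofut1, Adam10 and Adam17 had 1 each. Ptcra, the partner chain of the T cell receptor beta chain and a target of Notch, had its start in regions of both DN3 libraries and of neither naive library.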

How the data were processed

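ATAC-seq libraries of DN3 thymocytes and splenic naive CD4 T cells from Scd1-deficient mice and littermate controls, 1 library per group, were compared through 4 region lists that the authors deposited, each called on its own sample. The submitters' processing notes name Trimmomatic, BWA, MACS2 and the build mm10; settings, handling of duplicates and any shift for the Tn5 cut were not given in the sources used here. Score, fold and −log10 p and −log10 q of each region, with its summit, are the authors' values as deposited: the fold is the ratio of the summit pileup to the local background in its own library, and all of them belong to that library. They were used to describe, rank and filter regions.

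Regions on chromosomes 1 to 19 and X were joined into loci where they overlapped by at least 1 bp. A locus belonged to a gene if any part lay within the gene body and 10 kb on each side, in RefSeq coordinates of GRCm38.p6, the same assembly as mm10. Windows and sequences are from the RefSeq promoter table of that assembly. Distances run from the start of the RefSeq window, or for Hes1 from its lower-coordinate end. Summit fragments were recovered from fold and −log10 p as whole numbers, within 0.05, for all regions. Pileup is these fragments over the lowest background of the library; ratios of pileup were centred on the common loci of all genes, a scale chosen after seeing the data. Exact 95% intervals of the ratios (Clopper-Pearson) cover counting error only, and no molecular identifiers remove duplicates. No p-value was computed, since every group had 1 library. A fold ratio past 1.5 in both genotypes was counted toward a cell type.

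The genes and lists were chosen with earlier results of these data known. Named loci are, for each gene, up to 3 of the strongest DN3-only and naive-only loci, up to 2 of each genotype alone, and the strongest region of each library, by −log10 q. Alternatives were no flank or 50 kb, a −log10 q of at least 5, lists cut to 46585 regions, and overlap of 50% of the shorter region or summits within 250 bp. Some items are not reported here. The scripts were checked on simulated data. Python 3.11.15, pandas 2.3.3, NumPy 2.4.6, SciPy 1.17.1 and matplotlib 3.10.9 were used.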

Additional observations from a re-analysis of the deposited data

Results flagged for a closer look

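At Rbpj the loci called in a genotype alone leaned opposite ways in the cell types. The number of loci of the Scd1-deficient library alone minus the number of the control library alone was -1 in DN3 cells and 1 in naive cells. Each value rests on 1 locus, and the difference was not tested.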

How the results depend on the processing

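With each list cut to its strongest 46585 regions, DN3-only loci numbered 25 and not 54, naive-only loci 26 and not 10, loci of 1 DN3 genotype alone 16 and not 25 (12.5% of loci against 8.88% over all genes), and common loci past a fold ratio of 1.5 numbered 9 and not 15 (7.03% against 4.69%). Of these, 6 and not 12 leaned toward naive. With 50 kb on each side, 111 loci and not 73 were called in all 4 libraries (44.8% against 42.9% over all genes). Matching by summits gave 48 loci of 1 DN3 genotype alone (25.1% against 20.7%), and a −log10 q of at least 5 gave 9 loci of 1 naive genotype alone (5.59% against 8.64%) and not 14. On the centred pileup, added after seeing the data, 30 common loci and not 15 passed 1.5 (17.3% of loci against 14.4%). Among the 15 loci past a fold ratio of 1.5, the mean log2 ratio of DN3 over naive changed sign there at 3 loci: at Notch3 4.7 kb into the gene 1.14 against -1.10, at the Notch3 locus beside the start 1.02 against -1.26, and at Maml3 16.4 kb into the gene 0.01 against -0.79. The local background beside the Notch3 start was larger in DN3 cells, as given above. The other counts of DN3-only, naive-only, common and single-genotype loci, and of common loci past 1.5 in either direction, 29 in all, stayed within 1.5 times under these alternatives. What set the length of the lists was not tested. No paired analysis was possible because each group has 1 library.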

Other observations

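Of the 32 other pathway genes with a start window, 4 did not have it in a region of every library. The start window of Dll3, a divergent ligand of the Delta type, was in regions of both DN3 libraries and of neither naive library, as was that of Ptcra. Jag1, a ligand of the Jagged type, had its start in regions of both DN3 libraries and of Scd1-deficient naive cells, and not in control naive cells. The start window of Notch4 was in no region, although the gene had 7 loci and 6 of them were called in all 4 libraries. Heyl, with regions in DN3 cells alone, had a strongest −log10 q of 65.2 in Scd1-deficient and 79.7 in control DN3 cells. Lef1 had 16 and 14 regions in Scd1-deficient and control DN3 cells, against 28 and 26 in Scd1-deficient and control naive cells.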
